A study of Homo sapiens with 9 samples.

Results

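The POU-domain transcription factors were followed across the MDA-MB-231 breast cancer cell line and its 2 metastatic sub-populations. The set was POU2F1, POU2F2, POU2F3, POU3F1, POU3F2, POU4F1, POU5F1 and POU6F1, that is 8 of the 58884 genes in the deposited count table. The set was selected on the measured RNA counts of POU3F2 and POU2F2, which are higher in both metastatic lines than in the parental line, so that rise is the reason for the choice and is described here without a test. Of the 8 genes, 7 were found by symbol, and POU6F1, whose symbol field is empty, was found by its Ensembl identifier ENSG00000184271.

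MDA-MB-231 is a human claudin-low breast cancer line, and its unselected parental cells are called Par. LM2 and BrM2 are sub-populations of it that were selected in mice for colonizing the lung and the brain. All cells were cultured without treatment, and RNA was taken from 3 biological replicates per line, harvested at different passages, which gave 9 libraries. Each line is a single selected population, so the 3 replicates measure the spread between cultures of that population and not between independent metastases. The libraries held between 14371858 and 24511786 counts on genes. Markers of the claudin-low state (VIM, CD44, FN1, ZEB1 and AXL) summed to between 3288 and 6349 CPM, that is normalized counts scaled to library size, in every library. These markers did not move together, since VIM was higher in BrM2 than in Par (log2 fold change 1.05, adjusted p = 0.0163 in edgeR) and FN1 lower (-1.61, adjusted p = 0.000413). Luminal and epithelial markers summed to between 272 and 397 CPM in Par, 51.5 and 102 CPM in LM2, and 141 and 356 CPM in BrM2. Of the 6 such markers tested in edgeR, 1 was higher and 3 were lower in LM2 than in Par. In BrM2, 1 was higher and 1 lower than in Par. Over all genes tested, 8.69% had an adjusted p under 0.05 in LM2 against Par and 13.3% in BrM2 against Par. CLDN4 was lower than in Par in LM2 (-4.03, adjusted p = 0.00105 in edgeR) and in BrM2 (-2.26, adjusted p = 0.00926). FOXA1 went the other way, higher in LM2 (4.84, adjusted p = 0.00336 in edgeR) and in BrM2 (6.54, adjusted p = 0.000306), from 0, 0 and 1 counts in Par. Leukocyte markers, among them PTPRC, CD3E, MS4A1, CD68 and LYZ, summed to at most 0.630 CPM, and MS4A1 had no count in any library.

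POU proteins bind DNA with a bipartite domain, a POU-specific domain joined by a linker to a POU homeodomain, and their classic target is the octamer ATGCAAAT. POU2F1 (Oct-1) is made in nearly all cells and acts at histone and small nuclear RNA promoters, POU2F2 (Oct-2) is best known from B cells, and POU2F3 specifies tuft cells. POU3F1 (Oct-6) acts in Schwann cells, POU3F2 (Brn-2) in neural progenitors and melanoma, POU4F1 (Brn-3a) in sensory neurons, and POU5F1 (Oct-4) in pluripotent cells. POU6F1 (Brn-5) is a more divergent member that is expressed in brain and other tissues.

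RefSeq promoter windows for GRCh38.p14, each running from 250 bases before to 50 bases after a start site, were on hand for 6 of the 8 genes, 9 windows in all. The octamer, searched as ATGCAAAT on both strands (ATTTGCAT is its reverse), stood in 1 of them, a window of POU2F1. Over all genes it stood in 623 of 35116 windows, or 1.77%. The upstream part of that POU2F1 window is shown because it is the one with the motif, and those of POU2F2 and POU3F2 because these are the genes with higher counts in the metastatic lines. Capitals mark the octamer, and each sequence is written 5′ to 3′ on the strand of its gene.
POU2F1, chr1:167328820-167329069, plus strand: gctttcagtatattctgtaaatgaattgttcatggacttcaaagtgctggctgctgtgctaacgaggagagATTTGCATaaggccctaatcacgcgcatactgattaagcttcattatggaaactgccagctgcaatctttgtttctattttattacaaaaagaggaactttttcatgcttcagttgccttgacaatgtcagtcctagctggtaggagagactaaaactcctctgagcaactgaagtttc
POU2F2, chr19:42132447-42132696, minus strand: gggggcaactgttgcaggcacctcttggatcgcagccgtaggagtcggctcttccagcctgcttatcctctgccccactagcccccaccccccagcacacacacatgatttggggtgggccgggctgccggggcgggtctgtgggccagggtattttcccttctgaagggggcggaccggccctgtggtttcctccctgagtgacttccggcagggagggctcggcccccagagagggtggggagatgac
POU3F2, chr6:98834324-98834573, plus strand: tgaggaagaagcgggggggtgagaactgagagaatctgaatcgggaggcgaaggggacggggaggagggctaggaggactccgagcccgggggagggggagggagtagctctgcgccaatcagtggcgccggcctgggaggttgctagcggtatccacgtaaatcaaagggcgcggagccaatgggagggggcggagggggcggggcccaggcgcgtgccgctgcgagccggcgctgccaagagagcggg
The octamer of POU2F1 begins 179 bases before the start site of that window, which is a downstream start of the gene (the gene spans chr1:167220885-167427345). The printed POU2F1 stretch is 40.4% G and C, against 66.4% for POU2F2 and 69.2% for POU3F2.

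Of the 8 genes, 5 gave more than 4 counts in some library. POU3F1 had no count in any of the 9 libraries, which allows a level of up to 0.209 CPM in the shallowest library, for counting error only. POU4F1 gave 1 count in all, in LM2 replicate 1. POU2F3 gave between 1 and 4 counts in each library. A test across genes was run on the 13055 genes that passed a filter on low counts, and 4 of the 8 passed it, namely POU2F1, POU2F2, POU3F2 and POU6F1. POU5F1, POU2F3, POU3F1 and POU4F1 did not pass.

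POU3F2 was close to absent in Par and present in both metastatic lines. In Par, replicates 1 to 3 gave 1, 4 and 3 counts. LM2 gave 25, 75 and 100, and BrM2 gave 33, 99 and 105. Scaled for library size, these were 0.0525, 0.194 and 0.118 CPM in Par, 1.24, 3.06 and 3.83 CPM in LM2, and 2.44, 4.37 and 5.03 CPM in BrM2. Every metastatic library lay above every Par library, while LM2 and BrM2 overlapped. The mean was 0.121 ± 0.0706 CPM (SD, n = 3) in Par, 2.71 ± 1.33 CPM in LM2 and 3.95 ± 1.35 CPM in BrM2. With 8 counts in Par against 200 in LM2, the ratio of normalized counts was 23.0, with an exact conditional binomial 95% interval of 11.5 to 54.1. With 237 counts in BrM2 it was 33.8, with an interval of 16.9 to 79.3, and both intervals cover counting error only. Of all genes tested, 99.6% had a lower fitted log2 fold change than POU3F2 in LM2 against Par and 99.3% in BrM2 against Par. Since the rise in these comparisons chose POU3F2, a high rank follows from the choice and is a description only. The level stayed low in absolute terms, since even the highest library held 105 counts of a transcript of 4.88 kilobases.

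POU2F2 was present in Par and stepped up from Par to LM2 to BrM2. Its normalized level was 6.30, 6.73 and 6.72 CPM in the Par replicates, 18.6, 17.5 and 21.6 CPM in LM2, and 30.1, 27.8 and 30.3 CPM in BrM2. No library of one line overlapped those of another. The means were 6.58 ± 0.242 CPM (SD, n = 3) in Par, 19.2 ± 2.16 CPM in LM2 and 29.4 ± 1.40 CPM in BrM2, from 430, 1368 and 1671 summed counts. The fitted log2 fold change against Par was 1.55 (SE 0.18) in LM2 and 2.16 (SE 0.18) in BrM2, that is 2.92-fold and 4.47-fold. As with POU3F2, these values chose the gene and carry no test.

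**Figure D1:**
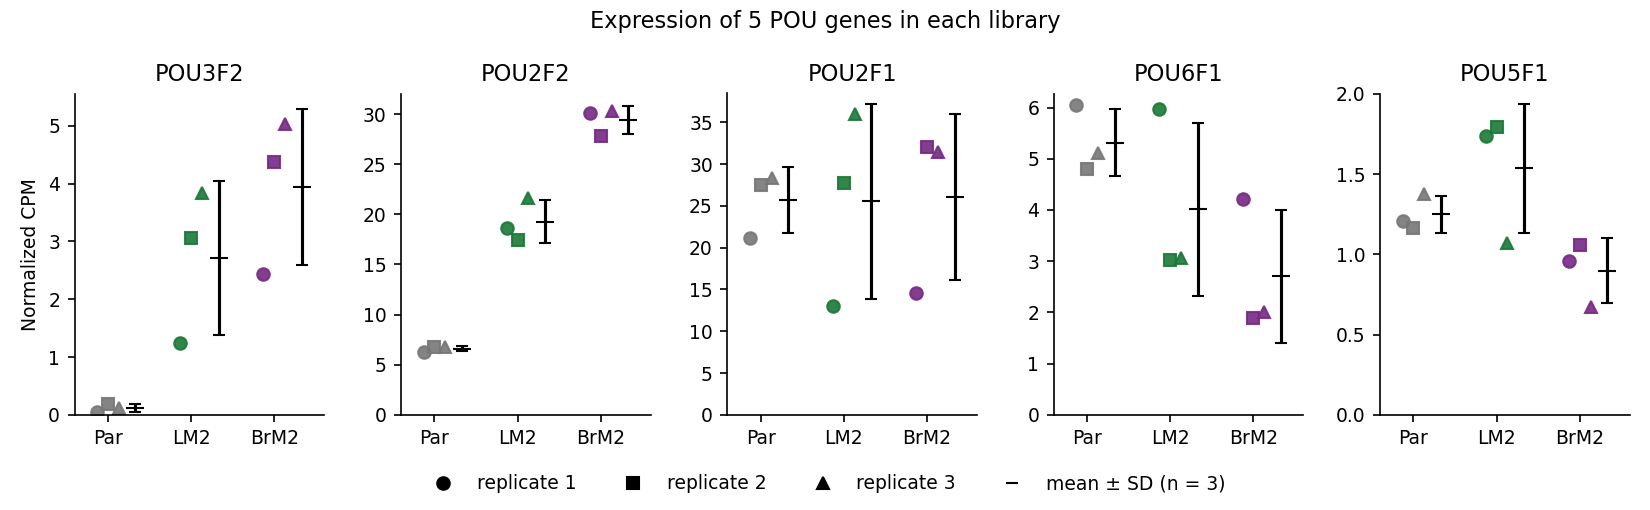
Normalized CPM of 5 POU genes (vertical axes, linear, each from 0) in the Par, LM2 and BrM2 libraries, with one symbol per replicate number and the mean ± SD of 3 libraries as a bar. POU2F2 forms 3 separate steps with means of 6.58, 19.2 and 29.4 CPM, POU3F2 lies at 0.194 CPM or less in Par, and replicate 1 lies apart from replicates 2 and 3 for POU3F2, POU2F1 and POU6F1.

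The comparison of BrM2 with LM2 asks whether the brain and lung lines differ from each other, and it was not used to pick these genes. POU2F2 was higher in BrM2 than in LM2 by 0.61 on the log2 scale (SE 0.18, 95% interval 0.21 to 1.01), or 1.53-fold, and the 3 BrM2 libraries lay above the 3 LM2 libraries. The quasi-likelihood F test of edgeR, adjusted by Benjamini-Hochberg over all 13055 genes, gave an adjusted p of 0.0729, which missed the threshold of 0.05. Same-numbered replicates of the 3 lines deviated together (correlations are given with the methods), and with the replicate number as a block in edgeR the difference was 0.61 (SE 0.13) with adjusted p = 0.0044. In the blocked edgeR fit without replicate 3 the adjusted p was 0.052, and without replicate 1 or 2 it was 0.03 and 0.00811. DESeq2 without a block gave 0.60 with adjusted p = 0.00292. POU3F2 differed by 0.54 between BrM2 and LM2 (SE 0.45, 95% interval -0.48 to 1.56) with an edgeR adjusted p of 0.583, and the blocked fit gave 0.58 (SE 0.22) with adjusted p = 0.0621. The unblocked interval of POU3F2 thus includes no difference, while the blocked one runs from 0.09 to 1.07, and both include the size seen for POU2F2.

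Without the block, 0 of the 4 genes passed the edgeR threshold between BrM2 and LM2, 1 had an unadjusted p under 0.05 and 1 passed in DESeq2, while 8.1% of all genes tested passed in edgeR. With the block, 1 of 4 passed, against 37.5% of all genes tested. POU2F2 was 1 of the 4 genes whose libraries did not overlap between the lines, against 23.1% of all genes tested.

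POU2F1, the ubiquitous member, had nearly the same mean in the 3 lines but a wide spread between replicates. Its level was 21.2, 27.5 and 28.4 CPM in Par, 12.97, 27.7 and 36.0 CPM in LM2, and 14.5, 32.1 and 31.5 CPM in BrM2. Replicate 1 was the lowest library in each line, and the lines overlapped throughout. The means were 25.7 ± 3.93 CPM in Par, 25.6 ± 11.7 CPM in LM2 and 26.0 ± 9.96 CPM in BrM2 (SD, n = 3). The log2 difference from Par was -0.01 in LM2 (SE 0.41, adjusted p = 0.997 in edgeR) and 0.02 in BrM2 (SE 0.41, adjusted p = 0.985). The 95% intervals of these differences ran from -0.93 to 0.92 and from -0.90 to 0.95. A change of nearly 2-fold in either direction was thus not excluded. With the replicate block the intervals narrowed to -0.52 to 0.30 and -0.47 to 0.36, with adjusted p = 0.678 and 0.829.

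POU6F1 had its lowest mean in BrM2. It gave 6.04, 4.79 and 5.11 CPM in Par, 5.96, 3.02 and 3.06 CPM in LM2, and 4.21, 1.90 and 2.01 CPM in BrM2. The 3 BrM2 libraries lay below the 3 Par libraries, and the LM2 libraries overlapped both. The means were 5.31 ± 0.650 CPM in Par, 4.02 ± 1.69 CPM in LM2 and 2.71 ± 1.30 CPM in BrM2 (SD, n = 3). The log2 difference of BrM2 from Par was -0.99 (SE 0.39, 95% interval -1.88 to -0.10), with an edgeR adjusted p of 0.154. With the replicate block it was -1.06 (SE 0.22) with adjusted p = 0.00297, so POU6F1 passed the threshold only in the blocked fit of the full data. Leaving out BrM2 replicate 1, whose level was 4.21 CPM, the unblocked edgeR difference was -1.44 with adjusted p = 0.038. The blocked difference kept an adjusted p of 0.00645 without replicate 1 and 0.0109 without replicate 2, and reached 0.0629 without replicate 3. LM2 differed from Par by -0.41 (SE 0.38, adjusted p = 0.67 in edgeR, 0.104 with the block). Without replicate 1 the difference was -0.70, with an edgeR adjusted p of 0.036 unblocked and 0.0532 with the block. The unblocked difference was -0.29 without replicate 2 and -0.23 without replicate 3, and neither passed. BrM2 differed from LM2 by -0.58 (SE 0.39, adjusted p = 0.473 in edgeR, 0.0607 with the block).

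**Figure D2:**
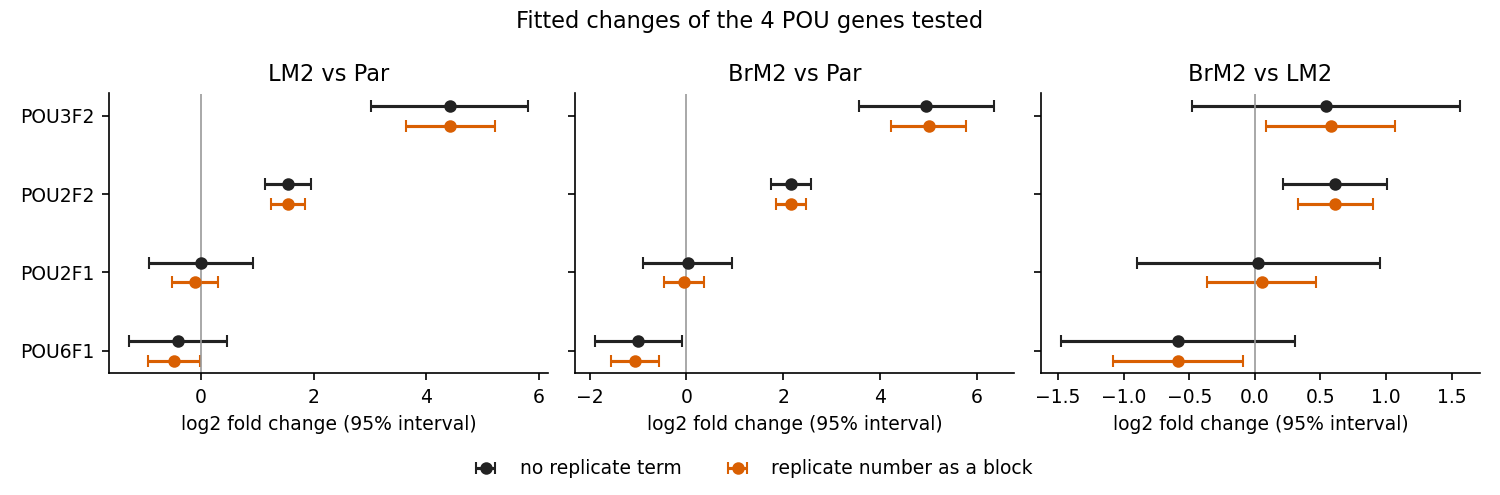
Log2 fold change (horizontal axes, which differ in range between panels) of the 4 POU genes that passed the filter, with 95% intervals from edgeR without a replicate term (black) and with the replicate number as a block (orange). The intervals of POU2F2 between BrM2 and LM2 exclude 0 in both fits, while that of POU6F1 between LM2 and Par runs from -1.28 to 0.46 without the block. Against Par, the intervals of POU3F2 and POU2F2 belong to the comparisons that chose these genes and are not a test.

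Of the genes that played no part in the choice, POU2F1 and POU6F1 were testable against Par. In LM2 against Par, 0 of these 2 passed in edgeR, where 8.69% of all genes tested passed, and 0 had an unadjusted p under 0.05 or passed in DESeq2. With the block it was again 0 of 2, against 34.5% of all genes tested. In BrM2 against Par, 0 of 2 passed in edgeR, where 13.3% of all genes passed, 1 had an unadjusted p under 0.05 and 0 passed in DESeq2. With the block 1 of 2 passed, against 42.7% of all genes tested. Among the 4 genes that passed the filter, POU2F2 and POU3F2 had no library overlapping those of Par in either metastatic line, and POU6F1 had none in BrM2. The share of genes without overlap, over all genes tested, was 25.2% in LM2 and 31.3% in BrM2. For POU2F2 and POU3F2 this absence of overlap belongs to the contrast that picked them.

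POU5F1 stayed at a low level in all lines and could be read only without the filter. Its counts were 23, 24 and 35 in Par, 35, 44 and 28 in LM2, and 13, 24 and 14 in BrM2. The means were 1.25 ± 0.112 CPM in Par, 1.54 ± 0.402 CPM in LM2 and 0.897 ± 0.202 CPM in BrM2 (SD, n = 3). The BrM2 libraries, at 0.960, 1.06 and 0.671 CPM, all lay below the Par and LM2 libraries, of which the lowest held 1.07 CPM. Shares of genes without overlap were computed only for genes that passed the filter. Without the filter, the edgeR log2 differences were 0.30 in LM2 and -0.48 in BrM2 against Par, and -0.78 in BrM2 against LM2, with adjusted p = 0.798, 0.681 and 0.464. With the block and no filter they were 0.26, -0.51 and -0.77, with edgeR adjusted p = 0.775, 0.358 and 0.0722. The counts of this gene are uncertain for 2 reasons. Of the 50-base stretches of its transcript, 32.5% also occur in other genes, among them POU5F1B and the pseudogenes POU5F1P3 and POU5F1P4. It also overlaps TCF19 on the opposite strand by 162 bases, and TCF19 held between 3585 and 5596 counts per library. The part of both in the POU5F1 counts was not tested.

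Between genes, levels can be compared only per transcript length, and on that scale the leading POU gene differed between the lines. In Par, POU2F1 had the highest level, 1.86 ± 0.284 CPM per kilobase (SD, n = 3), followed by POU6F1 at 0.946 ± 0.116, POU2F2 at 0.933 ± 0.0343 and POU5F1 at 0.886 ± 0.0798, and these last 3 did not differ beyond their spread. In LM2, POU2F2 led with 2.73 ± 0.306 CPM per kilobase over POU2F1 with 1.85 ± 0.843. POU2F2 was the higher of the pair within each LM2 library, at 2.64, 2.47 and 3.07 against 0.937, 2.001 and 2.601 CPM per kilobase, although the ranges of the genes overlapped across libraries. In BrM2, POU2F2 stood at 4.17 ± 0.199 CPM per kilobase and POU2F1 at 1.88 ± 0.720, with no overlap between their libraries. POU3F2 moved from 0.0248 CPM per kilobase in Par to 0.555 in LM2 and 0.808 in BrM2, with 0.499, 0.895 and 1.03 in the BrM2 libraries. Its BrM2 libraries overlapped those of POU5F1 at 0.636 ± 0.143 and POU6F1 at 0.482 ± 0.232, and in replicate 1 it was the lowest of these 3. Of the summed level of the 8 genes, POU2F2 made up between 19.2% and 20.4% in the Par libraries, 35.7% and 42.9% in LM2, and 47.6% and 58.7% in BrM2. The mean share of POU3F2 was 0.5% in Par, 7.8% in LM2 and 9.9% in BrM2, and that of POU2F1 was 39.5%, 25.9% and 23.1%. The mean level of POU2F1 itself was nearly flat, at 1.86, 1.85 and 1.88 CPM per kilobase. The rise that chose POU2F2 and POU3F2 enters these ranks and shares, so they are a description only. These lengths are of 1 canonical transcript per gene and do not allow for the use of other isoforms.

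**Figure D3:**
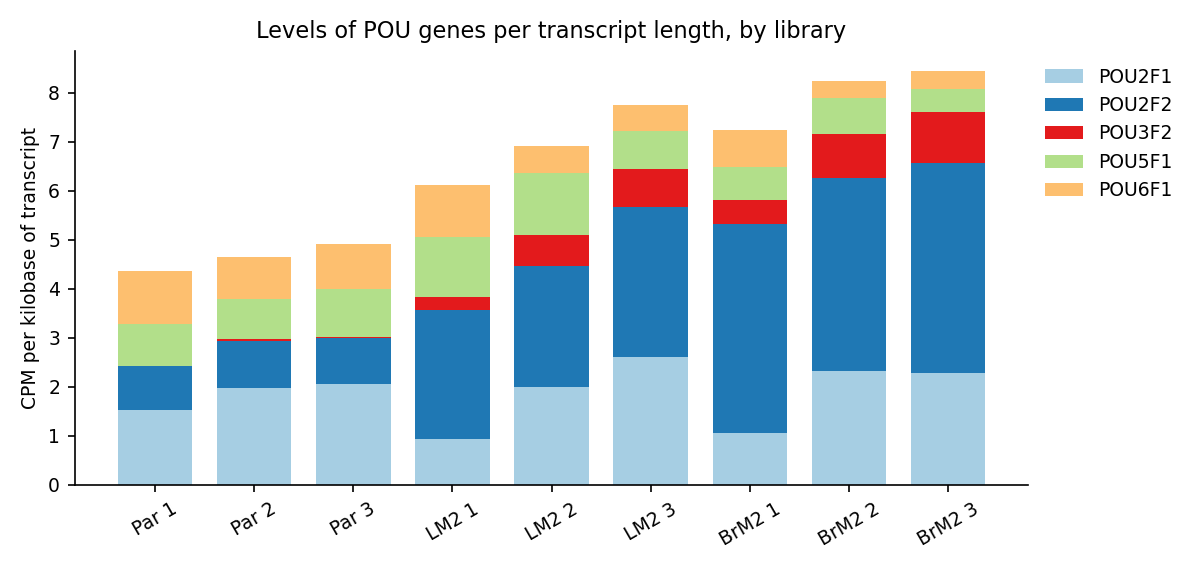
Stacked levels of 5 POU genes in each of the 9 libraries, in CPM per kilobase of canonical transcript (vertical axis, from 0). POU2F2 takes the widest band in every BrM2 library, with a mean of 4.17 CPM per kilobase against 1.88 for POU2F1, and POU3F2 appears as a visible band in the LM2 and BrM2 libraries.

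The balance of the 2 octamer-binding paralogs POU2F2 and POU2F1 can be read within each library, where library size cancels. Par libraries held 0.298, 0.245 and 0.237 POU2F2 counts per POU2F1 count. LM2 libraries held 1.44, 0.630 and 0.601, and BrM2 libraries held 2.07, 0.867 and 0.964. Every metastatic library was above every Par library, and replicate 1 was the highest in each line. The rise of POU2F2 that chose the gene enters this ratio, so it is a description only.

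Replicate 1 stood apart from replicates 2 and 3 for 3 of the 4 tested genes, in opposite directions. On the log2 CPM scale, replicate 1 of POU2F1 lay below the mean of replicates 2 and 3 by 0.398 in Par, 1.28 in LM2 and 1.12 in BrM2. POU3F2 showed the same order, with replicate 1 below the mean of the others by 0.755 in Par, 1.40 in LM2 and 0.919 in BrM2. Its Par value rests on 1 count against 4 and 3, too few to tell a replicate difference from counting error. POU6F1 went the other way, higher in replicate 1 by 0.284 in Par, 0.95 in LM2 and 1.07 in BrM2. POU2F2 moved by at most 0.091 in either direction. The canonical transcripts of POU2F1 and POU3F2 are 41.8% and 46.7% G and C, and those of POU6F1 and POU2F2 are 54.8% and 54.9%. The part of base composition in these replicate differences was not tested.

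**Figure D4:**
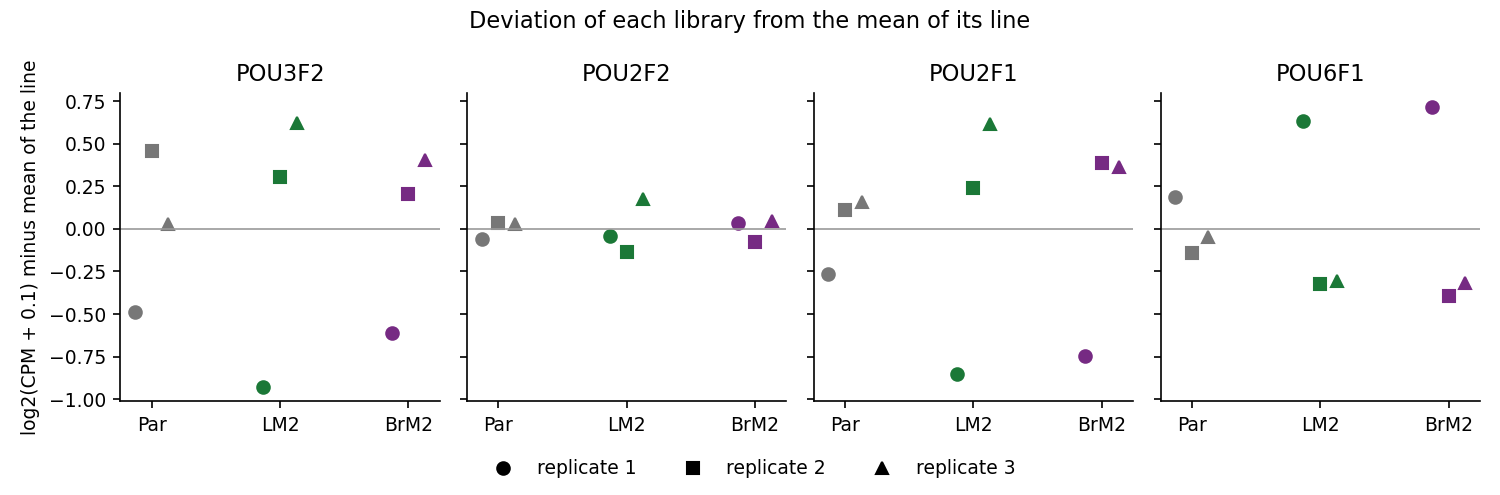
Deviation of each library from the mean of its line, as log2(CPM + 0.1) (vertical axis), for the 4 POU genes that passed the filter, with circles for replicate 1, squares for replicate 2 and triangles for replicate 3. Circles lie below 0 for POU3F2 and POU2F1 and above 0 for POU6F1 in all 3 lines, and the points of POU2F2 stay close to 0. In Par, the points of POU3F2 rest on 1, 4 and 3 counts.

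Genes with the most similar pattern were ranked by Pearson's r of log2 CPM over the 9 libraries, among the tested genes with a symbol. For POU3F2 these were TENM1 (r = 0.994), which encodes a teneurin of the neuronal surface, ROBO1 (r = 0.993), a receptor for Slit guidance cues, RBM24 (r = 0.990), an RNA-binding protein, MSI2 (r = 0.989), a Musashi RNA-binding protein of stem and progenitor cells, and JPH1 (r = 0.987), a junctophilin. TENM1 had means of 0.207 CPM in Par, 12.5 in LM2 and 17.7 in BrM2, and ROBO1 had 7.62, 46.3 and 65.1 CPM. For POU2F2 they were GABBR2 (r = 0.993), a subunit of the GABA-B receptor, PHACTR1 (r = 0.992), a regulator of actin and phosphatase 1, LINP1 (r = 0.989), a long noncoding RNA, SOCS2 (r = 0.989), a suppressor of cytokine signaling, and SUSD5 (r = 0.989). GABBR2 had means of 0.0891, 1.87 and 5.22 CPM in Par, LM2 and BrM2, and SOCS2 had 10.6, 33.9 and 47.1 CPM. These genes head longer lists, since 88 of the 13055 genes tested had an r above 0.95 with POU3F2 and 80 with POU2F2. The rise from Par that chose POU3F2 and POU2F2 enters each r, which is a description only. POU3F2 and POU2F2 had an r of 0.957 with each other, which their choice for a rise in both metastatic lines largely fixes. POU2F1 had an r of 0.178 with POU3F2 and -0.042 with POU2F2. POU6F1 had an r of -0.799 with POU3F2 and of -0.695 with POU2F2 over the same 9 libraries.

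Genes that work with each POU factor were read from lists, in which 3 genes passed in edgeR in LM2 against Par, 8 in BrM2 against Par and 4 in BrM2 against LM2. With 2 libraries per line the counts were 11, 16 and 12 without replicate 1, 0, 0 and 0 without replicate 2, and 1, 0 and 0 without replicate 3, while the block on the full data gave 12, 19 and 16. Of the 29 list genes tested, that is 10.3%, 27.6% and 13.8% without the block, beside 8.69%, 13.3% and 8.1% of all genes, and 41.4%, 65.5% and 55.2% with it, beside 34.5%, 42.7% and 37.5%. Over all 13055 genes tested, the fit without replicate 1 called 4327 in LM2 against Par and 5274 in BrM2 against Par. These numbers were 70 and 159 without replicate 2, and 136 and 274 without replicate 3. In BrM2 against LM2 they ran from 53 to 4257 over the 3 fits. The lists were chosen with earlier results of these data known, so the shares are a description only.

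Partner proteins of the POU factors were measured first. POU2AF1 (OCA-B), the coactivator of POU2F2 and POU2F1 in B cells, and its relatives POU2AF2 and POU2AF3, which pair with POU2F3, had no count in any library. HCFC1, the host cell factor that joins POU2F1 on viral promoters, and PARP1 were tested and passed in none of the 3 comparisons in edgeR. With the replicate block, PARP1 was higher than in Par by an adjusted p of 0.00535 in LM2 and 0.00445 in BrM2. SOX4 was the one partner gene that passed without the block. It fell from 25.04 ± 8.96 CPM in Par and 17.1 ± 5.18 CPM in LM2 to 6.84 ± 1.15 CPM in BrM2, by 1.87 on the log2 scale against Par (SE 0.34, adjusted p = 0.00741 in edgeR) and by 1.32 against LM2 (SE 0.34, adjusted p = 0.0475). With the block SOX4 was also lower in LM2 than in Par (adjusted p = 0.0268). SOX2, the partner of POU5F1 and POU3F2, gave between 1 and 17 counts per library, and SOX11 none.

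The factors that work beside POU2F1 at small nuclear RNA promoters were all expressed. Of the 8 genes (5 SNAPC subunits, ZNF143, TBP and BRF2), 8 were tested and 0 passed in edgeR in any comparison. In that fit 2 had an unadjusted p under 0.05 in LM2 against Par, 0 in BrM2 against Par and 2 in BrM2 against LM2, and DESeq2 called 1 lower in LM2 than in Par and 1 higher in BrM2 than in LM2. With the replicate block, 1 was higher and 2 lower in LM2 than in Par, 4 were higher in BrM2 than in Par and 2 were higher in BrM2 than in LM2. Of all genes tested, 34.5%, 42.7% and 37.5% passed with the block in these comparisons, in either direction. The median log2 fold change of the list was -0.03, 0.33 and 0.25 in LM2 against Par, BrM2 against Par and BrM2 against LM2, beside 0.01, -0.02 and -0.03 over all genes tested.

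Most of the pluripotency genes that surround POU5F1 were at trace counts. Of 14 genes, 9 never exceeded 3 counts in a library, among them NANOG, LIN28B and PRDM14, and 3 were tested. DNMT3B, a de novo DNA methyltransferase, rose from 12.8 ± 0.957 CPM in Par to 31.4 ± 2.56 CPM in BrM2, by 1.30 on the log2 scale (SE 0.19, adjusted p = 0.00217 in edgeR). It was also higher in BrM2 than in LM2, where the mean was 18.7 ± 2.41 CPM, by 0.74 (SE 0.18, adjusted p = 0.0412), and with the block it was higher in LM2 than in Par (adjusted p = 0.00898). KLF4 and TFCP2L1 passed in none of the 3 comparisons in edgeR, and TFCP2L1 was lower in BrM2 than in Par with the replicate block (adjusted p = 0.0238).

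Among 10 neural and melanocytic genes tied to POU3F2, 5 were tested. MITF, the master regulator of melanocytes, rose from 17.3 ± 5.43 CPM in Par to 53.3 ± 18.4 CPM in BrM2, by 1.62 on the log2 scale (SE 0.40, adjusted p = 0.0276 in edgeR), and was 19.4 ± 7.04 CPM in LM2. NES, which encodes the progenitor filament nestin, fell from 49.1 ± 5.22 CPM in Par to 28.5 ± 2.95 CPM in LM2, by 0.79 (SE 0.18, adjusted p = 0.0269), and stood at 41.8 ± 3.25 CPM in BrM2. The neural crest factor PAX3 never exceeded 1 count, and MYT1L gave between 1 and 20. The list held 0 genes that passed in edgeR between BrM2 and LM2, where 3 had an unadjusted p under 0.05 and DESeq2 called 2 higher in BrM2. With the block all 5 tested genes of the list passed in that comparison, 3 higher and 2 lower in BrM2, with adjusted p = 1.4e-05 for MITF, 0.00112 for KITLG, 0.00665 for NES, 0.0334 for NFIB and 0.0355 for PDE5A. Of all genes tested, 37.5% passed with the block in BrM2 against LM2 and 42.7% in BrM2 against Par. In BrM2 against Par the block added NFIB as higher and KITLG and PDE5A as lower (adjusted p = 0.00563, 0.000168 and 0.0473). The general neuron markers summed to between 4.36 and 6.34 CPM in Par, 6.11 and 14.8 CPM in LM2, and 3.10 and 3.98 CPM in BrM2. The neurofilament genes NEFL and NEFM had no count in any library, and RBFOX3 had at most 2. SNAP25, a protein of synaptic vesicle fusion, made up much of the sum in LM2, with 10, 29 and 19 counts in Par, 68, 185 and 189 in LM2, and 5, 9 and 8 in BrM2, and passed in edgeR in LM2 against Par (log2 fold change 2.76, adjusted p = 0.0047) and in BrM2 against LM2 (-3.96, adjusted p = 0.00134). SYT1, another synaptic vesicle gene, gave between 20 and 162 counts per library. The part of these markers in the values of POU3F2 was not tested.

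Most of the genes that go with POU2F2 in B cells had few or no counts. Of 15 genes, 4 had no count in any library, among them MS4A1, CD79B and CXCR5, and 2 were tested. CD22, a sialic acid-binding receptor of B cells, fell from 15.7 ± 1.52 CPM in Par to 6.21 ± 0.517 CPM in BrM2, by 1.34 on the log2 scale (SE 0.22, adjusted p = 0.00383 in edgeR), while LM2 had 10.5 ± 2.12 CPM. With the block it was also lower in LM2 than in Par (adjusted p = 0.0155) and in BrM2 than in LM2 (adjusted p = 0.00637). BCL6 passed in none of the 3 comparisons in edgeR, and with the block it was lower in LM2 than in Par (adjusted p = 0.0421) and than in BrM2 (adjusted p = 0.027). SPIB, a partner of POU2F2 in B cell gene control, gave at most 6 counts.

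Of the 13 tuft cell genes, 6 were tested, and 4 passed in at least 1 comparison. In LM2 against Par 1 was lower. In BrM2 against Par 1 was higher and 3 lower, and in BrM2 against LM2 1 was higher and 1 lower. Over all genes tested, 8.69%, 13.3% and 8.1% passed in these comparisons. ALOX5, the 5-lipoxygenase, gave 130, 110 and 121 counts in Par, 1, 5 and 4 in LM2, and 10, 20 and 5 in BrM2, and was lower than in Par in both (adjusted p = 0.000588 and 0.0024 in edgeR). ALOX5AP, its activating protein, gave 32, 28 and 55 counts in Par, 74, 65 and 32 in LM2, and 3, 0 and 1 in BrM2, lower in BrM2 than in Par and than in LM2 (adjusted p = 0.00618 and 0.0048 in edgeR). PTGS1, a cyclooxygenase, fell by 1.63 on the log2 scale from Par to BrM2 (SE 0.34, adjusted p = 0.0126). With the block PTGS1 was also lower in LM2 than in Par and in BrM2 than in LM2 (adjusted p = 0.0144 and 0.0103), and ALOX5 was higher in BrM2 than in LM2 (adjusted p = 0.0148). PLCB2, a phospholipase of taste signaling, was higher in BrM2, at 4.81 ± 2.42 CPM, than in Par by 3.12 on the log2 scale (SE 0.60, adjusted p = 0.00931) and than in LM2 by 2.16 (SE 0.56, adjusted p = 0.0489). The tuft cell genes TRPM5, CHAT and ASCL2 had at most 1 count in any library.

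Of the 8 sensory neuron genes tied to POU4F1, 2 were tested. NTRK2, the receptor for brain-derived neurotrophic factor, rose from 0.399 ± 0.173 CPM in Par to 1.82 ± 0.930 CPM in LM2, by 2.16 on the log2 scale (SE 0.51, adjusted p = 0.0311 in edgeR), and was 1.36 ± 0.159 CPM in BrM2, where the edgeR adjusted p was 0.0596, or 0.00382 with the replicate block. RUNX1 passed in none of the 3 comparisons in edgeR, and with the block it was lower in BrM2 than in Par (adjusted p = 0.0233) and than in LM2 (adjusted p = 0.00498). Other POU genes, among them POU1F1, POU3F3, POU3F4, POU4F2, POU4F3, POU5F2 and POU5F1B, stayed at 5 counts or fewer in every library, and none passed the filter.

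**Figure D5:**
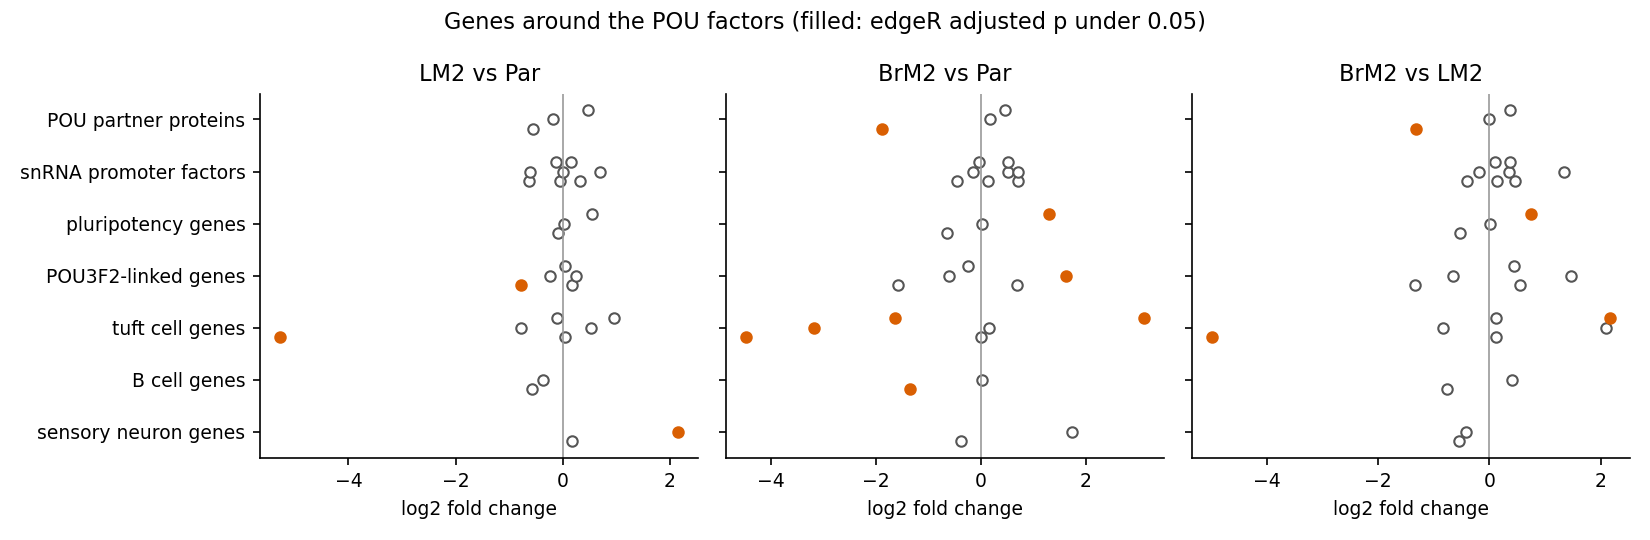
Log2 fold change (horizontal axes, which differ in range between panels) of each tested gene of the lists around the POU factors, 1 point per gene, in the 3 comparisons. Filled points passed edgeR's adjusted p of 0.05 without the block, and they include SOX4 and CD22 to the left, and DNMT3B, MITF and PLCB2 to the right of 0 in BrM2 against Par.

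Genes whose promoter window holds the octamer were then set beside all genes with a window. Of the 10107 tested genes with a window, 183 had the octamer. Their median log2 fold change was 0.00 in LM2 against Par, -0.04 in BrM2 against Par and -0.02 in BrM2 against LM2, beside 0.01, -0.02 and -0.03 for all 10107. Of the 183, 13 were higher and 10 lower in LM2 than in Par, 21 higher and 15 lower in BrM2 than in Par, and 12 higher and 8 lower in BrM2 than in LM2. The share that passed in edgeR was 12.6%, 19.7% and 10.9%, beside 8.0%, 12.7% and 7.5% of all genes with a window. The medians lay within 0.02 of those of all genes, and passing genes stood on both sides of 0, more of them on the higher side. Genes that passed as higher made up 7.1%, 11.5% and 6.6% of the 183, beside 3.8%, 6.0% and 3.9% of all genes with a window. These are descriptions, since gene groups were not tested.

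Histone genes are the best-known octamer targets of POU2F1, and the windows of 7 tested histone genes held the motif. Of these, H2AC6 and H2BC12 are shown because they passed in at least 1 comparison, and H2AC11 and H2BC11 because their octamer is the same site read from both strands. PHACTR1, TENM2 and LHX6 are shown because they passed in all 3 comparisons, with LM2 between Par and BrM2 in each. These genes were chosen after their values were seen. Of the 183 octamer genes, 3 passed in all 3 comparisons with Par below LM2 below BrM2 (H2AC6 among them), and 1 with the reverse order. Over all 10107 genes with a window, these numbers were 29 and 30. The share rising over the lines was thus 1.64% beside 0.29%, which was not tested. Capitals mark the octamer, which lies upstream of the start site in each gene shown.
H2AC6, chr6:26124022-26124069, plus strand: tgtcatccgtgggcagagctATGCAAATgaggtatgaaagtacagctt
H2BC12, chr6:27146877-27146924, minus strand: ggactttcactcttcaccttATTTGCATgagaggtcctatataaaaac
H2AC11, chr6:27132815-27132862, plus strand: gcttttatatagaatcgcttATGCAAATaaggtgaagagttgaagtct
H2BC11, chr6:27132815-27132862, minus strand: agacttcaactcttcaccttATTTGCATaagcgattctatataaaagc
PHACTR1, chr6:12716571-12716618, plus strand: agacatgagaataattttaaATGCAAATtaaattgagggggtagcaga
TENM2, chr5:167073152-167073199, plus strand: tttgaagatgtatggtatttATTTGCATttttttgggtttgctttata
LHX6, chr9:122228437-122228484, minus strand: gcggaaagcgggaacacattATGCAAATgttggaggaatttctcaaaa

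H2AC6 had 9.55 ± 1.99 CPM in Par, 23.2 ± 1.02 CPM in LM2 and 48.1 ± 3.198 CPM in BrM2, with edgeR adjusted p = 0.00502, 0.000229 and 0.0131 for LM2 against Par, BrM2 against Par and BrM2 against LM2. H2BC12 had 24.1 ± 8.30 CPM in Par, 26.4 ± 7.92 CPM in LM2 and 70.5 ± 26.4 CPM in BrM2, and passed in BrM2 against Par (log2 fold change 1.55, adjusted p = 0.0303 in edgeR). H2AC11, H2BC11, H2BC18, H2BC21 and H3-3B passed in none of the 3 comparisons in edgeR. The libraries were made from polyadenylated RNA, and most replication-dependent histone messages lack a poly(A) tail, so these counts cover only the polyadenylated part. PHACTR1, the second most similar gene to POU2F2, had 0.600 ± 0.138 CPM in Par, 4.08 ± 0.363 CPM in LM2 and 10.1 ± 0.337 CPM in BrM2, with edgeR adjusted p = 0.000302, 4.93e-05 and 0.00659. It is shown for its order over the lines, which is also that of POU2F2, so their similarity is a description only. Of the genes named above as most similar to POU3F2 or POU2F2, PHACTR1 alone had the octamer. JPH1 and SOCS2 among them had no window on hand. TENM2, a teneurin, had 0.0454 ± 0.0487 CPM in Par, 0.740 ± 0.445 CPM in LM2 and 12.3 ± 1.46 CPM in BrM2. LHX6, a homeobox factor of interneurons, went the other way, with 4.87 ± 0.902 CPM in Par, 2.34 ± 0.0495 CPM in LM2 and 1.14 ± 0.188 CPM in BrM2. Whether a POU protein is bound at any of these sites was not measured here.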

How the data were processed

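RNA-seq was made from 3 biological replicates of each of 3 lines with a TruSeq stranded mRNA kit and paired-end sequencing. The authors aligned reads with STAR 2.7.0 to hg38 and deposited raw gene counts. The strand setting of the counting is not given in the sources used here. CASAVA 1.8.2 is named in the submitters' processing notes. A second deposited file holds the authors' own DESeq2 comparisons (fold changes and p-values) and was not used. The members and gene lists were chosen with earlier results of these data known.

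Of 58887 rows, 3 identifiers listed under 2 symbols with identical counts were kept once, which left 58884 genes. Genes were filtered as HTSFilter does, by the largest normalized count (threshold 47.15), and 13055 were tested with edgeR 4.0.16 (TMM factors, quasi-likelihood F test, all 9 libraries, Benjamini-Hochberg adjustment, threshold 0.05) in R 4.3.3. CPM values use the same factors. DESeq2 1.42.0 was an alternative, run on the same counts. The labels number the replicates 1 to 3 within each line. Deviations from the line means correlated at 0.23 to 0.898 in all 9 pairs of same-numbered libraries, so the numbers were taken as pairing the samples, and a fit with the replicate number as a block is given beside the POU genes and beside the named list genes whose call it changes. This pairing comes from the data, not from the labels. The named genes were the 8 members, the 5 genes with the highest r to POU3F2 and to POU2F2, and up to 3 passing genes per list and comparison. Transcript lengths, base composition and overlaps came from GENCODE v44 on GRCh37, and coordinates and promoters from RefSeq on GRCh38.p14. The scripts were tested on simulated data. Some genes of the lists are not reported here.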

Additional observations from a re-analysis of the deposited data

How the results depend on the processing

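For the POU genes tested, the count past the threshold was 0 in each comparison without it and 0, 1 and 1 with it (LM2 against Par, BrM2 against Par, BrM2 against LM2). The block with no filter gave 1 and 1 for the last pair, and DESeq2 gave 1 in BrM2 against LM2. POU2F2 in BrM2 against LM2 was 0.61 with the block, 0.60 in DESeq2 and 0.61 with the block and no filter, each past the threshold. Without the block or the filter it was 0.61 with an edgeR adjusted p of 0.416, and with relative log expression factors 0.61 with 0.078. In the 9 unblocked edgeR fits without 1 library, its adjusted p was between 0.0991 and 0.262. Without 1 replicate number and without the block it ran from 0.0219 to 0.697. Leaving out a library or a replicate number, without or with the block, gave counts of 0 to 1 in each comparison, with POU2F2 between 0.55 and 0.71 in BrM2 against LM2 and between 2.13 and 2.22 in BrM2 against Par. The genes of the lists that passed numbered 3, 8 and 4 in the 3 comparisons, 12, 19 and 16 with the block, 13, 19 and 18 with the block and no filter, and 6 and 10 in DESeq2 for the first and the last. With libraries left out they ranged from 0 to 11, 0 to 16 and 0 to 12 without the block, and up to 19 and 14 for the last pair with the block. POU2F1 lay near 0 and changed sign without passing in any setting: in LM2 against Par it was 0.0259 with relative log expression factors and 0.0258 in DESeq2, in BrM2 against Par it was -0.058 with the block and -0.055 with the block and no filter, and with libraries left out it ranged from -0.34 to 0.31, -0.19 to 0.31 and -0.29 to 0.36. The median of octamer genes minus that of all genes was -0.0189 in BrM2 against Par and 0.0323 without the filter. Over all genes tested, 1134, 1733 and 1057 passed, 4510, 5577 and 4896 with the block, 5273, 6486 and 5704 with the block and no filter, and 70, 159 and 53 without replicate 2. Why these counts move was not tested.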

Other observations

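The design bounds these results. Each line is 1 selected population, so the line and the history of that population cannot be told apart, and the p-values measure the spread between cultures. POU3F2 rests on 8 counts in Par, and 4 of the 8 genes were too low to test. BrM2 replicate 1 had the fewest counts on genes, 14371858. Protein levels and DNA binding of the POU factors were not measured in these files, and a fold change of messenger RNA does not give either. The block fits pair replicates by number, which the labels do not tie to a shared culture date.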
